A study of Rattus norvegicus with 24 samples.

Results

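The respiratory chain and ATP synthase were described in rat left ventricle from 98 of 8799 probe sets, covering 56 genes. Members were all probe sets with a single gene symbol of the Nduf family, Sdha to Sdhd and their assembly factors, the Uqcr family, Cox4 to Cox8 and the Atp5 family, by current or older name. Complex I was measured by 44 probe sets for 26 genes, complex II by 2 probe sets for 2 genes, complex III by 6 for 3, complex IV by 27 for 13 and complex V by 19 for 12. All 98 passed the filter on low intensity. Not every member is a subunit: Ndufaf3, Sdhaf2 and Dmac2 are assembly factors, Atp5if1 inhibits ATP synthase, Cox7a2l joins complexes into larger assemblies and Cox6c-ps1 is a pseudogene. Ndufa4 was counted under complex I by its name, although the protein belongs to complex IV. Dmac2 and Dmac2l entered by older Atp5 symbols, Emc8, whose older symbol began with Cox4, was left out, and so were 6 probe sets with several symbols.

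The animals were Dahl salt-sensitive rats, which develop hypertension when fed much salt. They were received when 5 weeks old and treated from the age of 6 weeks on. Exercised rats, a model of physiologic hypertrophy, ran on a treadmill every day for 6 weeks: the load rose over 3 weeks and was then held at 16 m/min, 5 degrees of incline and 90 minutes a day. High salt rats, a model of pathologic hypertrophy, ate chow with 6% NaCl, and controls were sedentary rats of the same age on normal chow. By their titles the 24 columns form 8 groups of 3, with all 3 treatments present at 3 and at 6 weeks but no exercise group at 15 weeks. The labels do not say from when the weeks in the titles are counted. Nothing in the labels ties an array to an animal of its own, so the p-values reflect array-to-array spread alone, which may be technical.

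Oxidative phosphorylation makes most of the ATP that a beating heart uses. Complexes I and II take electrons from NADH and succinate, complex III passes them through cytochrome c to complex IV, which reduces oxygen, and the proton gradient built on the way drives ATP synthase, complex V. Every member here is encoded in the nucleus, and the genes of a complex must supply subunits in fixed proportions.

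Several facts about the arrays bear on the values. Of the 24 columns, 4 held only 2 arrays, each given once as a control and once as an exercised rat of 3 weeks, so that the table held 22 distinct arrays; these 2 entered no group mean but that of the 4 non-salt arrays of 3 weeks, and they count among the 22 arrays over which values are centred or their spread is given. The GAPDH 3' to 5' ratio, a sign of RNA integrity that rises as RNA is shortened from its 5' end, was 1.58, 2.48 and 3.99 in the 6-week controls and 1.09, 1.52 and 1.58 in the 15-week controls. In the 16 arrays of all other groups it ranged from 0.989 to 1.18. Of 9 cardiac myocyte markers 8 were measured, none at 0, and their summed intensity was between 151722 and 261164 on every array. In such whole tissue, fewer cells of a type and less RNA per cell cannot be told apart.

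Each complex was first summarised per array as the median of its probe sets, each taken relative to its own mean over the 22 arrays on the log2(intensity + 40) scale. Complex I stood at 0.09, 0.12 and 0.26 in the 15-week controls and at -0.11, -0.28 and -0.12 in the 15-week high salt arrays. The 2 groups did not overlap. In the same order, the GAPDH ratios were 1.09, 1.52 and 1.58 in those controls and 1.11, 1.16 and 1.11 in high salt. A link between these ratios and the complex I values was not tested. Yet the 6-week groups were wide. High salt array 2 of 6 weeks was at -0.33, below every 15-week array. Control array 3 of 6 weeks, with the highest GAPDH ratio, 3.99, was at -0.34, also below them. Control arrays 1 and 2 of 6 weeks, with ratios of 1.58 and 2.48, were at 0.34 and 0.26. At 3 weeks the 3 high salt arrays lay close together, from 0.03 to 0.05. Complex IV did not overlap between the groups of 15 weeks either, with 0.07, 0.19 and 0.16 in controls and -0.06, 0.04 and -0.02 in high salt. Complex V overlapped, with 0.04, 0.10 and 0.12 in controls and 0.02, 0.14 and -0.01 in high salt.

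**Figure D1:**
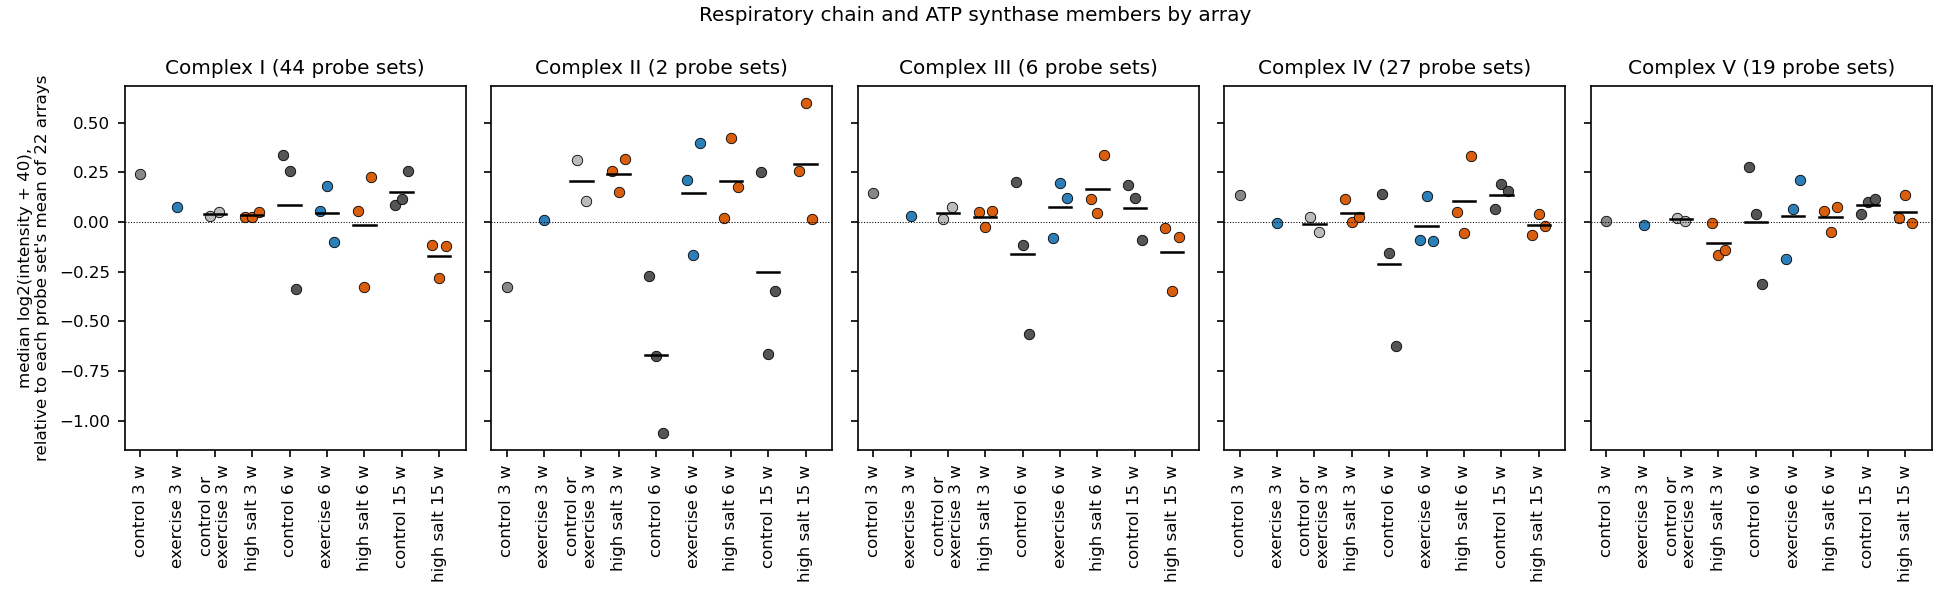
Each point is 1 array and shows the median log2(intensity + 40) over the probe sets of a complex, relative to the mean of each probe set over 22 arrays; bars are group means, and light grey points are the 2 arrays with both labels. In complex I the 15-week high salt arrays (-0.28 to -0.11) lie below the 15-week controls (0.09 to 0.26). The same holds in complex IV (-0.06 to 0.04 against 0.07 to 0.19), while control array 3 of 6 weeks is low in all 5 complexes.

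Over the 19 arrays outside the 6-week controls, single members differed in how steady they were. The median SD of a probe set on the log2 scale was 0.31 in complex I, 0.27 in complex III, 0.24 in complex IV and 0.24 in complex V. Cox5b (D10952_i_at), a nuclear-encoded subunit of cytochrome c oxidase, had an SD of 0.15, with intensities from 6758.8 to 10532.9. Atp5f1a, the alpha subunit of the catalytic head of ATP synthase, also had an SD of 0.15, with intensities from 6461.5 to 10380.4.

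At 15 weeks, most complex I probe sets had lower means in high salt than in control hearts, but 2 of 44 passed the test, a share near that of all probe sets. Of the 98 members 2 fell and 0 rose, where 7.2% of all 6555 tested probe sets were called, 3.28% higher and 3.92% lower (limma, Benjamini-Hochberg adjusted p under 0.05). Both were complex I subunits, Ndufs7 and Ndufb5. Without a threshold, 39 of the 44 complex I probe sets had a fitted change below 0, against 55% of all tested, and their median change was -0.41 against -0.04. In 20 of 44 all 3 high salt arrays lay below all 3 controls, against 12.5% of all tested, and in 0 did they lie above, against 8.41%. By the brightest probe set of each gene, 24 of 26 genes were lower.

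Ndufs7 encodes the iron-sulfur subunit that hands electrons to ubiquinone. Its probe set rc_AA875268_at read 8561.1, 9457.4 and 10385.4 in the 15-week controls and 6289.1, 6570.1 and 4830.6 in high salt, so the groups did not overlap. It fell by 0.69 ± 0.19 (SE) on the log2 scale, a 1.61-fold drop (adjusted p = 0.0346, limma). Ndufb5 encodes an accessory subunit of the membrane arm. Its probe set rc_AA893185_at read 5335.2, 6443.3 and 5819.0 in controls and 4262.0, 2173.2 and 4416.7 in high salt. All 3 high salt values were lower, with array 2 lowest by far, and it fell by 0.76 ± 0.22, 1.69-fold (adjusted p = 0.0421, limma). The second Ndufb5 probe set, AA684537_at, had a change of -0.18 ± 0.23 and overlapping groups: 1558.8, 1698.4 and 1547.1 in controls, and 1220.4, 1710.0 and 1324.9 in high salt.

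Other complex I subunits had values of similar size without passing; Ndufb9, Ndufv3 and Ndufs4 are named after their values were seen. Ndufb9, a membrane-arm subunit, read 13172.7, 10444.1 and 16081.0 in controls and 9780.8, 7342.0 and 6842.7 in high salt, a change of -0.72 ± 0.24 (adjusted p = 0.0726, limma). Ndufv3, a small accessory subunit of the NADH-oxidising module, read 9804.4, 11462.9 and 13502.9 in controls and 8810.2, 9015.9 and 6026.4 in high salt (-0.55 ± 0.20, adjusted p = 0.104, limma). In neither did the groups overlap. Ndufs4, an accessory subunit of the same module whose loss causes Leigh syndrome in people, read 3255.2, 4104.1 and 3505.3 in controls against 2771.4, 1432.3 and 2945.9 (-0.66 ± 0.25). The probe set of complex I farthest the other way was Ndufs1, the largest iron-sulfur core subunit, at 1.19 ± 0.43 (adjusted p = 0.107, limma). Its controls read 619.2, 122.7 and 297.5 and overlapped high salt at 742.5, 610.8 and 811.1. Its 2 low control arrays were those with GAPDH ratios of 1.52 and 1.58, a link that was not tested. Sdhaf2 of complex II had the same order, with 1507.5, 881.0 and 881.9 in controls and 1603.1, 2585.9 and 1334.2 in high salt. The brightest complex I probe set, of the membrane-arm subunit Ndufb8 (rc_AA964320_at), was at -0.43 ± 0.25.

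**Figure D2:**
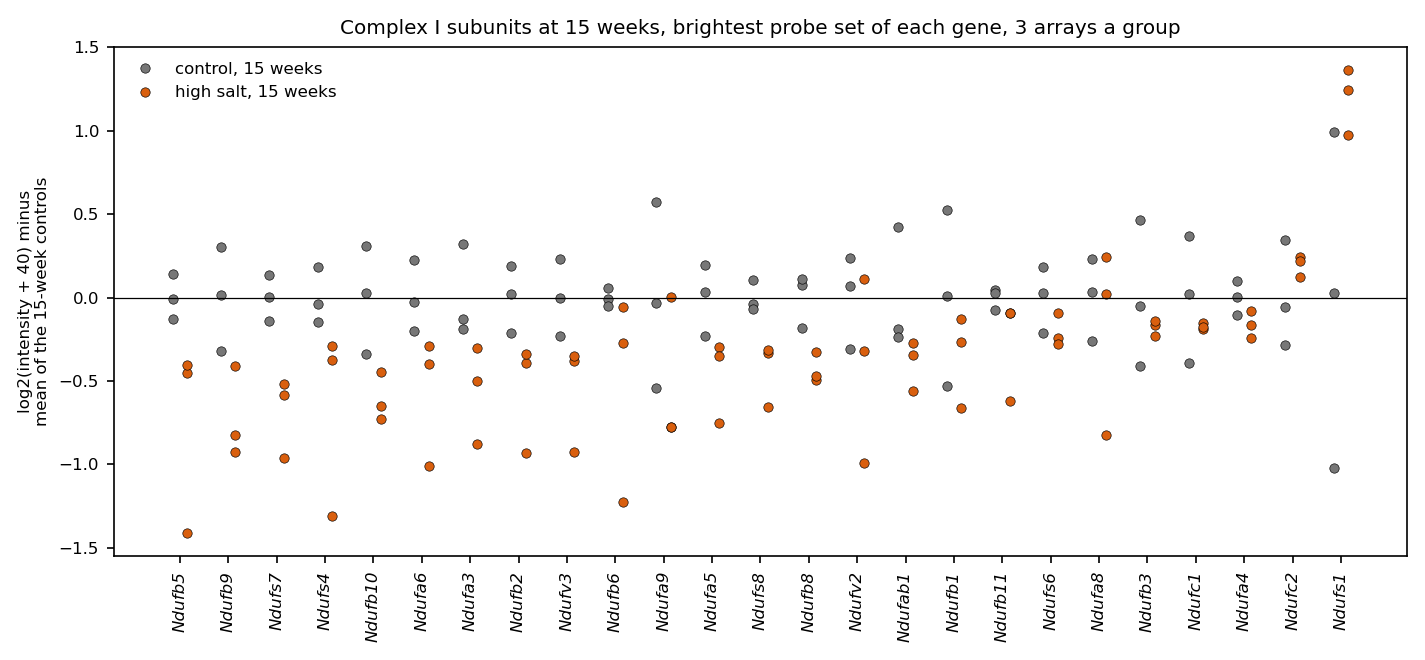
Each point is 1 array at 15 weeks, for the brightest probe set of each complex I subunit, as log2(intensity + 40) minus the mean of the 3 controls, with genes ordered by fitted change. Ndufb5 and Ndufs7, the 2 subunits that fell, have no overlap between control (grey) and high salt (orange), and Ndufs1 at the far right lies above 0.

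In the other complexes no member passed. The 2 complex II probe sets were both higher: Sdha, the flavoprotein that oxidises succinate, at 0.36 ± 0.25, and the assembly factor Sdhaf2 at 0.72 ± 0.26 (adjusted p = 0.103, limma). Complex III had a median of -0.24, with 2 Uqcrfs1 probe sets, for the Rieske iron-sulfur protein, at -0.50 ± 0.26 and -0.44 ± 0.21 and the third at 0.09 ± 0.37. The brightest complex III probe set, of the small subunit Uqcr11 (rc_AA892462_at), was at -0.29 ± 0.19. In complex IV 18 of 27 were below 0, with a median of -0.17 and 6 of 27 without overlap and lower. Cox7a2l, a factor that helps join complexes III and IV into supercomplexes, had a change of -0.72 ± 0.23 by rc_AI232307_at (adjusted p = 0.0651, limma), and Cox7b, a small subunit, one of -0.54 ± 0.21. The second Cox7a2l probe set, rc_AI172452_at, was at 0.04. The complex IV probe set with the highest mean intensity over the 22 arrays, rc_AA818226_s_at of Cox4i1, was at -0.43 ± 0.20. Complex V had a median of -0.05 and 10 of 19 below 0. The catalytic subunits Atp5f1a and Atp5f1b were at -0.17 ± 0.17 and -0.08 ± 0.20, and the brightest probe set, D13127_g_at of the stalk protein Atp5po, at -0.44 ± 0.18. The other Atp5po probe set, D13127_at, was at 7.9e-05. The inhibitor of ATP synthase, Atp5if1, had all 4 probe sets above 0, from 0.07 to 1.07, and none passed.

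**Figure D3:**
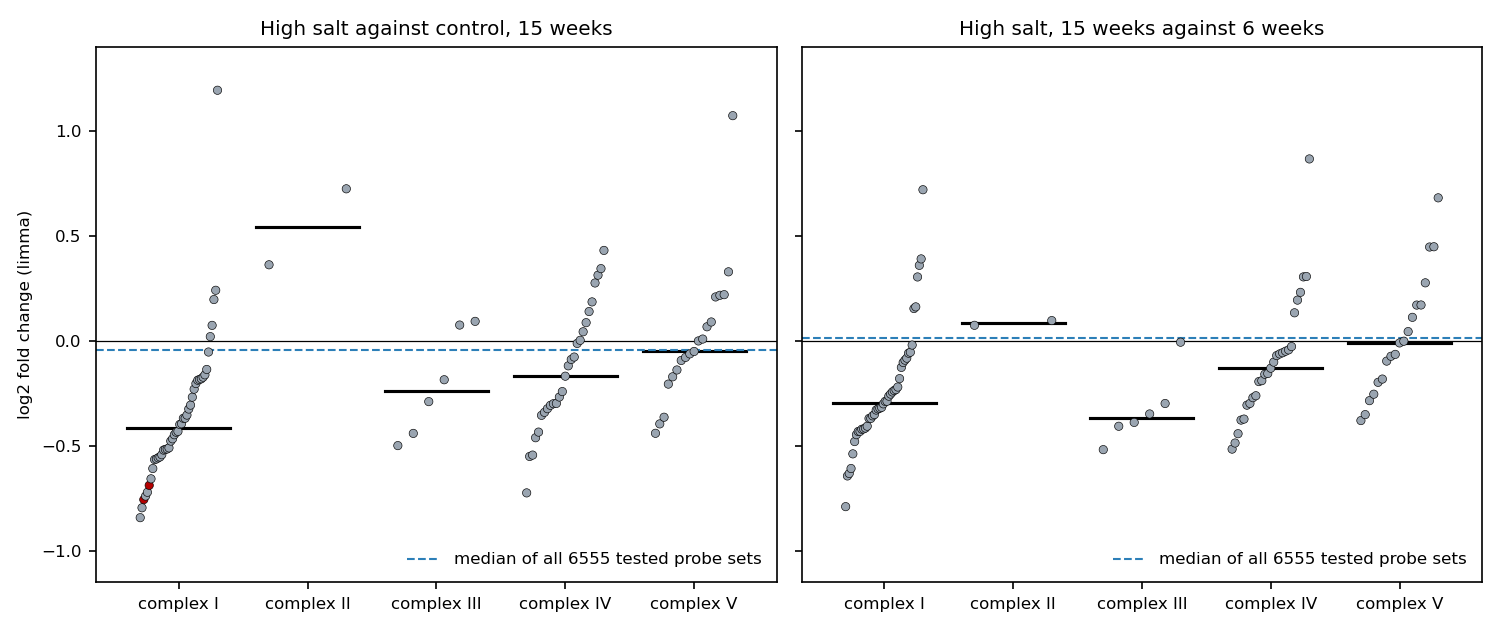
Fitted log2 fold changes of the 98 probe sets by complex, sorted within each, with bars at the medians; red marks the 2 that fell, and the dashed line is the median of all 6555 tested. In the left panel complex I is centred on -0.41 and complex V on -0.05; in the right panel, which uses no controls, they are centred on -0.29 and -0.01.

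No difference between complexes was tested, since probe sets are not replicates. Without control array 1 of 15 weeks 7 members were called (3 rose), and without control 2, control 3, high salt 1, high salt 2 or high salt 3 the counts were 0, 0, 2, 1 and 1. Fitted on the compared groups alone, neither Ndufs7 (adjusted p = 0.059, limma) nor Ndufb5 (adjusted p = 0.142, limma) passed. The complex I median kept its sign, at -0.46 to -0.29, in the 6 fits that each left out 1 array. With the GAPDH ratio as a covariate 8 members fell, among them Ndufs7, Ndufb5, Ndufb9 and 2 Ndufs8 probe sets, and the complex I median was -0.52. The share of all tested probe sets called in these refits is not given here. When the 2 controls with ratios of 1.52 and 1.58 were left out, a check chosen after seeing the data, 0 members were called, and 35 of 44 complex I probe sets were below 0 with a median of -0.35. The complex II median was then 0.04, with 1 of its 2 probe sets below 0. Against the 4 non-salt arrays of 3 weeks the complex I median was -0.27 with 38 of 44 below 0. Age is not separated from diet in that comparison. Ndufs7 and Ndufb5 no longer passed there, while Atp5if1 (rc_AA891873_f_at, 0.63 ± 0.17) rose and Uqcrfs1 (rc_AI103911_at, -0.80 ± 0.23) fell.

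Cell type markers also differed at 15 weeks. Of 7 fibroblast markers 4 fell in high salt, and the summed level of the list was 25867.0 to 34947.8 in controls and 11117.4 to 21427.3 in high salt. Of 3 red blood cell markers 2 rose, with sums of 18166.3 to 24498.5 and 31915.8 to 39001.7. Of 3 leukocyte markers 1 fell, with sums of 3931.0 to 4519.9 and 2384.8 to 3631.4. The 4 smooth muscle markers were all below 0 with 0 called by limma, 2 of them at an unadjusted p under 0.05, and their sums were 3787.3 to 5092.8 in controls and 2325.2 to 2893.7 in high salt, without overlap. The 8 cardiac myocyte markers had 0 calls, a median change of -0.11 and sums of 197359 to 247845 and 176007 to 243037, which overlapped. Of them 2 had an unadjusted p under 0.05 (limma), both higher, and the largest change was 1.155. The 4 endothelium markers measured had 0 calls, with 2 above and 2 below 0. Of these, 2 had an unadjusted p under 0.05 (limma), both lower, and the sums of 1349.3 to 2099.3 in controls and 1171.8 to 1410.3 in high salt overlapped. No marker had a value of 0, and the part of these cell types in the complex I values was not tested.

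Promoters were read for complex I because its members lay to one side together. RefSeq (build GRCr8) gave the 250 bases before the start of 47 of the 56 member genes. Both strands were searched for a site of NRF-1, a known activator of respiratory genes, in which any letter was allowed at 1 position. A match to it need not be a palindrome. They were also searched for CCGGAAG, the core of ETS factors such as GABP, for AAGATGGC (YY1) and for TCAAGGTCA (ERR). NRF-1 letters were in 5 of 47 member promoters, or 10.6%, against 3.75% of all 33469 promoters in the table. ETS letters were in 9, or 19.1%, against 7.27%. YY1 letters were in 1 (2.13% against 1.63%) and ERR letters in 0, against 0.388%. The first pair below belongs to the 2 genes that fell, and the third shows an NRF-1 match in another complex I gene, in capitals, 39 bases before the start. They lie at chr7:10110499-10110748 (minus strand), chr2:117447355-117447604 (plus strand) and chr20:9613536-9613785 (plus strand).

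Ndufs7: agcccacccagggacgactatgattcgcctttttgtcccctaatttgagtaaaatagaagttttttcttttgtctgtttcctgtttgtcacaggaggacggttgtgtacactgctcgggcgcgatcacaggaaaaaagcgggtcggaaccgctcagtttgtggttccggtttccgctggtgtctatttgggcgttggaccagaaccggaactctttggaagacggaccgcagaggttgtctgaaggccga
Ndufb5: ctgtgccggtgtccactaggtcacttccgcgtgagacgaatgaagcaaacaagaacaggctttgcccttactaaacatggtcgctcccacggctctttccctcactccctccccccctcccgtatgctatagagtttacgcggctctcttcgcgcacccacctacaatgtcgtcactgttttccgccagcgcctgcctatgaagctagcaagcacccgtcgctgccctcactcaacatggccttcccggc
Ndufv3: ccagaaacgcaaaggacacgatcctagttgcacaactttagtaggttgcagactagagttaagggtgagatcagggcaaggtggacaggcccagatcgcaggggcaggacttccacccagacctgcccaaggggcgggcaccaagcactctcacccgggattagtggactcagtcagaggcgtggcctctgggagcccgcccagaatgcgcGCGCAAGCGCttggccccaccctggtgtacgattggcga

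Neither Ndufs7 nor Ndufb5 held any of the 4 motifs in this window, while Ndufv3 held 1. Among complex I genes, 3 of 24 had the NRF-1 letters and 3 of 24 the ETS letters. A match is a run of letters in this window and not a bound site.

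High salt arrays of different weeks were then compared, which uses no control array. Age is not separated from diet in these comparisons, so the 2 cannot be told apart. Between the high salt arrays of 6 and 15 weeks, 0 members were called by limma, where 3.19% of all tested probe sets were. Of the members 5 had an unadjusted p under 0.05. Complex I was again below 0 in 38 of 44, against 48.4% of all tested, with a median of -0.29 against 0.01. All 6 complex III probe sets were below 0, with a median of -0.37. Complexes IV and V had medians of -0.13 and -0.01. Ndufb9 read 14357.0, 8661.6 and 15123.2 at 6 weeks, so that array 2 of 6 weeks overlapped the 15-week values, and its change was -0.64 ± 0.24. For Ndufa3, a small membrane-arm subunit, the change was -0.63 ± 0.28. Leaving out high salt array 3 of 6 weeks brought the complex I median to -0.19 with 34 of 44 below 0. Fibroblast markers fell in 4 of 7 and red blood cell markers rose in 3 of 3 measured over this span as well, and their part was not tested. Between the high salt arrays of 3 and 6 weeks 0 members were called by limma, where 0.0763% of all were, with 0 at an unadjusted p under 0.05. The median of the members was then 0.05, and the complex I median 0.02.

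At 6 weeks, high salt was compared with controls whose GAPDH ratios were the highest of the series. Of the 98 members 15 rose and 1 fell, where 14.4% of all tested probe sets were called, 6.64% higher and 7.73% lower. The median change of the members was 0.10 against -0.15 for all tested. Complex I had 6 that rose and 1 that fell, complex II 1, complex III 1, complex IV 6 and complex V 1 that rose. Yet 25 of 44 complex I probe sets were below 0, with a median of -0.08, against 62.7% of all tested. The medians of complexes III, IV and V were 0.32, 0.27 and 0.07. By brightest probe set, 15 of 26 complex I genes were lower, and 4 of all 56 genes rose. Their sizes ran from 1.57-fold for Cox6a2, the heart and muscle isoform of a cytochrome c oxidase subunit, to 5.22-fold for Ndufs8, an iron-sulfur core subunit of complex I.

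The Ndufs8 probe set rc_AA851379_at read 768.0, 148.7 and 37.1 in the 6-week controls and 1088.0, 990.8 and 1397.5 in high salt, and rose by 2.38 ± 0.48 (adjusted p = 0.00296, limma). All 3 controls were below all high salt arrays, and the fall from 768.0 to 37.1 among them followed the GAPDH ratios of 1.58, 2.48 and 3.99. A second, AA685112_at, rose by 1.42 ± 0.30, from 1403.7, 736.2 and 369.9 to 1623.7, 2032.3 and 2493.0. Another, rc_AA799479_g_at, read 9110.9, 7744.4 and 5601.4 in controls and 8039.6, 5865.0 and 8689.0 in high salt, with a change of 0.02 ± 0.19. The last, the dim rc_AA799479_at, was at -0.97 ± 0.43, so probe sets of this gene disagreed.

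Ndufs1 (AA686031_at) read 209.4, 100.2 and 103.8 in controls and 335.0, 1017.3 and 1182.4 in high salt, and rose by 2.20 ± 0.43 (adjusted p = 0.00248, limma). Uqcrfs1 rose by 1.71 ± 0.37 on M24542cds_at, from 6212.1, 3178.4 and 1308.5 to 8263.5, 8978.2 and 12608.4. Its other probe sets were at 0.50 ± 0.21 and -0.18 ± 0.26 and did not pass. Sdhaf2 rose by 1.29 ± 0.26, from 870.0, 560.7 and 563.1 to 1291.1, 1991.0 and 1752.4. In none of these did control and high salt arrays overlap.

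Smaller rises were called in complex I for the assembly factor Ndufaf3 (1.14 ± 0.27) and the membrane-arm subunits Ndufb5 (AA684537_at, 1.14 ± 0.23) and Ndufb6 (0.96 ± 0.26). In complex IV they were called for Cox4i1 (X54081mRNA_i_at, 1.13 ± 0.33), Cox7a2l (rc_AI172452_at, 0.91 ± 0.28), the ubiquitous isoform Cox6a1 (0.85 ± 0.22 and 0.65 ± 0.18), Cox8a (L48209_s_at, 0.69 ± 0.22) and Cox6a2 (X12554cds_s_at, 0.65 ± 0.18). In complex V the stalk subunit Atp5pb rose by 0.80 ± 0.24. The 1 that fell was a dim Ndufb8 probe set, rc_AA999168_at, from 257.9, 145.5 and 116.3 to 67.1, 34.8 and 60.0 (-1.14 ± 0.35), while the brightest Ndufb8 probe set was at 0.52 ± 0.25. Sdha was at 0.46 ± 0.25, Uqcr11 at 0.15 ± 0.19 and Atp5po at 0.78 ± 0.26 (D13127_at) and -0.30 ± 0.18 (D13127_g_at), all without passing.

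All 11 genes with a call and more than 1 probe set also had one that was not called, and in 6 of them the probe sets differed in sign. With the GAPDH ratio as a covariate 0 of 98 passed and the member median was -0.31. With the beta-actin ratio 0 passed as well, but the member median was 0.19, and Ndufs1 stood at 1.60 ± 0.68, Ndufs8 (rc_AA851379_at) at 1.15 ± 0.70 and Cox6a1 at 0.74 ± 0.37 and 0.67 ± 0.29, with larger errors than before. When controls of 3 and 15 weeks took their place 0 passed and the median was -0.08. Shares over all tested probe sets are not given for these settings, so the 0 calls cannot be read as particular to the members. Leaving out 1 array gave 26 calls without control 1, 9 without control 2, 7 without control 3 and 6 without high salt 3. Smooth muscle markers fell in 3 of 4 in both treatments, with sums of 4548.8 to 11035.0 in controls, 2803.4 to 4408.9 in high salt and 2820.9 to 4199.9 in exercise. Leukocyte sums were 3700.9 to 4001.9 in controls, 5440.1 to 7420.1 in high salt and 4761.2 to 6633.0 in exercise, where Cd74 rose in both treatments and Ptprc fell in high salt. Of the cardiac myocyte markers Pln rose in both and Ryr2 with exercise, and in high salt 8 of 8 were above 0 with a median of 0.35. With exercise 6 of the 8 were below 0, with a median of -0.14. Kdr of endothelium, Fabp4 of fat cells and Tnnt3 of skeletal muscle fell in both, but not all of their lists went the same way. Of 4 endothelium markers 1 was above 0 in high salt and 3 with exercise. Of 4 fat cell markers 2 were above and 2 below 0 in each treatment, and all 3 skeletal muscle markers were below 0. The part of these markers was not tested.

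**Figure D4:**
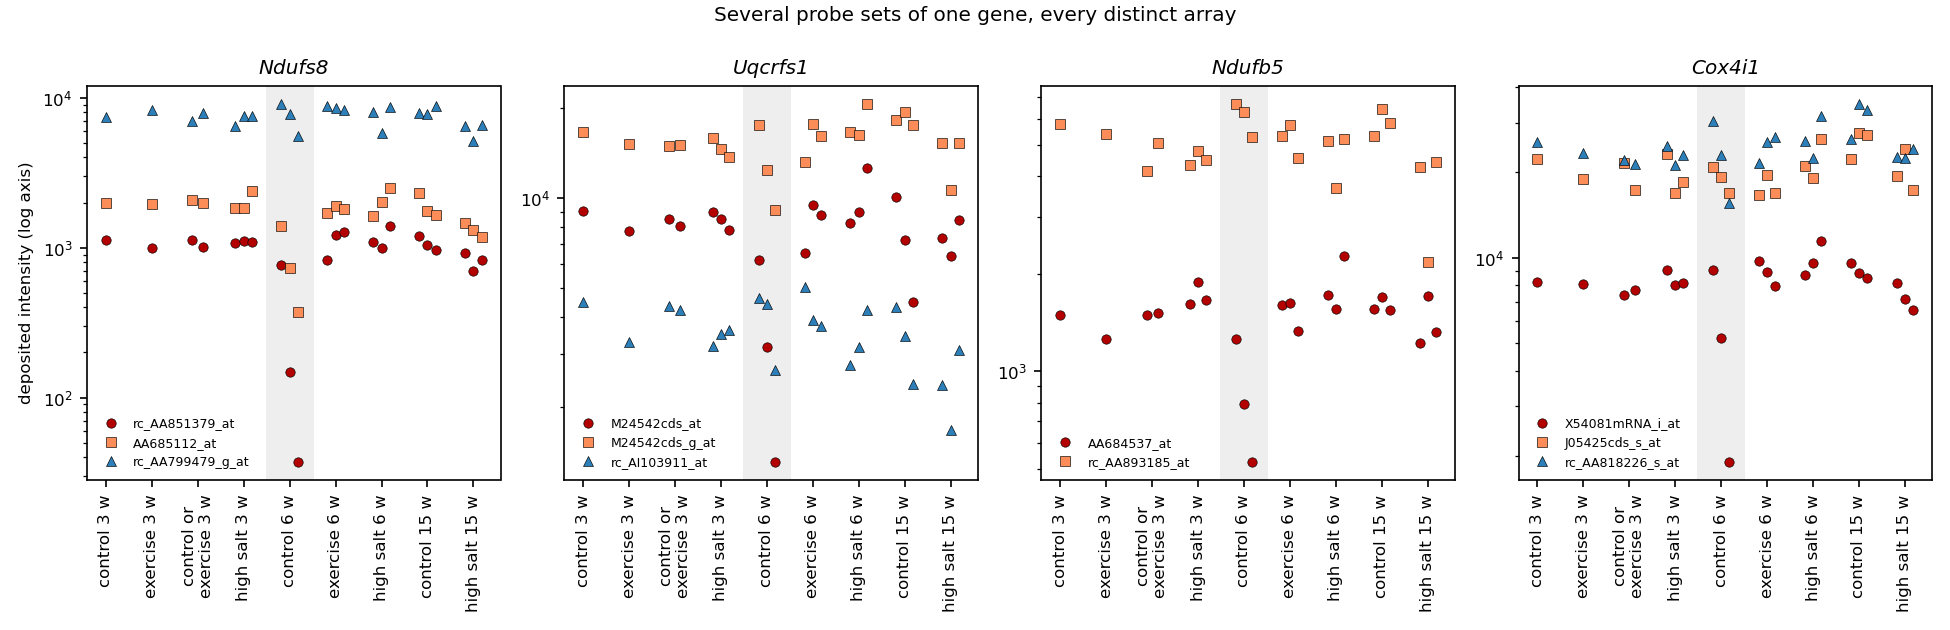
Deposited intensity on a log axis of probe sets of Ndufs8, Uqcrfs1, Ndufb5 and Cox4i1, 1 point per array, with the 6-week controls shaded. For Ndufs8 the very dim probe set rc_AA799479_at is not drawn; rc_AA851379_at drops to 37.1 in a 6-week control while rc_AA799479_g_at is never below 5164.9.

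Exercise was compared with the same 3 controls at 6 weeks, so its values share their spread with those of high salt. Of the members 7 rose and 0 fell, where 7.83% of all tested probe sets were called, 4.47% higher and 3.36% lower, and the member median was 0.10 against -0.12. These 7 were all among the 15 of high salt. In complex I 25 of 44 probe sets were below 0, with a median of -0.14, against 61.8% of all tested. Ndufs8 rose by 2.30 ± 0.48 (rc_AA851379_at) to 824.3, 1212.0 and 1263.6, and by 1.26 ± 0.30 (AA685112_at) to 1709.6, 1906.6 and 1807.4. Ndufs1 rose by 2.02 ± 0.43 to 728.5, 780.6 and 495.4, and Uqcrfs1 by 1.45 ± 0.37 to 6533.9, 9457.7 and 8796.0. Sdhaf2 rose by 1.27 ± 0.26, Ndufaf3 by 1.21 ± 0.27 and Ndufb5 by 0.88 ± 0.23 (AA684537_at).

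Uqcrc2, a core protein of complex III, had a change of 1.08 ± 0.36 with exercise without passing (adjusted p = 0.0645, limma), and Cox4i1 one of 0.97 ± 0.33. With either RNA ratio as a covariate, or against the controls of 3 and 15 weeks, 0 of 98 passed, and the member medians were -0.39 with the GAPDH ratio, 0.13 with the beta-actin ratio and -0.08 against those controls. Complex I was at 0.30 with the beta-actin ratio, 11 of 44 below 0, so the 2 ratios moved it in opposite directions. The count was 20 without control 1, 3 without control 3 and 4 without exercise 2. Shares over all tested probe sets are not given for these refits either.

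The direct comparison of the 2 treatments at 6 weeks leaves the controls out. High salt and exercise differed in 0 of 98 members by limma, where 0.0153% of all tested probe sets were called, and 5 members had an unadjusted p under 0.05. The member median was 0.06, with changes from -1.36 to 0.70, and a typical 95% interval reached 0.497 to either side. Atp5pf, coupling factor 6 of the ATP synthase stalk, read 4504.7, 6225.1 and 4935.7 with exercise and 7573.9, 7705.0 and 10330.2 with high salt, a change of 0.70 ± 0.19 without overlap (adjusted p = 0.226, limma). Cox6a2 (X12554cds_s_at) read 18390.8, 23442.1 and 22064.5 with exercise and 25687.6, 28247.2 and 32956.0 with high salt, again without overlap (0.44 ± 0.18). The dim Ndufb8 probe set rc_AA999168_at was at -1.36 ± 0.35. Of the 8 cardiac myocyte markers 7 were higher in high salt and 1 lower, with a median of 0.42. By limma 0 of these markers were called and 4 had an unadjusted p under 0.05, and their part was not tested. The width of the intervals means that likeness of the 2 treatments was not shown.

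At 3 weeks, high salt was compared with the 4 distinct arrays of rats without salt, controls and exercised rats together. By limma 0 members were called, where 0.153% of all tested probe sets were, and 2 had an unadjusted p under 0.05: the pseudogene Cox6c-ps1 at -0.69 ± 0.30 and a dim Atp5if1 probe set, M35300_f_at, at -0.58 ± 0.26. The member median was -0.04 against -0.05 for all tested. The medians of complexes I, III, IV and V were -0.08, -0.06, -0.01 and -0.10.

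Whether the effect of high salt differed between 15 and 6 weeks was tested as an interaction. Of the 98 members 3 differed, all lower at 15 weeks, where 1.6% of all tested probe sets were called: Ndufs8 rc_AA851379_at (-2.75 ± 0.68), Ndufs8 AA685112_at (-1.93 ± 0.42) and Ndufb5 AA684537_at (-1.32 ± 0.33). The 6-week control mean of rc_AA851379_at was 317.9 ± 393.7 (SD, n = 3) against 1062.8 ± 115.5 in the 15-week controls, and 0 passed when the GAPDH ratio entered the fit. The member median was -0.34 against 0.09 for all tested.

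The isoform pairs of complex IV were read in every group, since the heart uses muscle forms of some subunits. Cox6a2 (X12554cds_s_at) had means of 23364.5 ± 3396.4 (SD, n = 3) in high salt at 3 weeks, 28963.6 ± 3686.8 at 6 weeks and 28187.1 ± 4385.0 at 15 weeks. Its controls stood at 18703.4 ± 4646.6 at 6 weeks and 29749.3 ± 995.5 at 15 weeks, and exercised rats at 21299.1 ± 2611.2 at 6 weeks. Cox8b, the muscle form of another small subunit, was not called in any comparison, with changes at 15 weeks of -0.46 ± 0.20 and -0.30 ± 0.19. Cox4i2, the isoform best known from lung, was at 1498.3 ± 277.6 in 6-week controls, 975.4 ± 264.2 in 6-week high salt and 1103.2 ± 392.6 in 15-week high salt, and was not called either.

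Genes that feed or serve the chain were read from gene lists by the brightest probe set of each gene. Of 21 carriers and electron-transfer genes 13 were measured. The outer membrane channel Vdac1 rose at 6 weeks by 2.73 ± 0.44 with high salt and 2.82 ± 0.44 with exercise, Etfa, an electron-transfer flavoprotein subunit, by 0.97 ± 0.31 with high salt, and the uncoupling protein Ucp3 by 1.24 ± 0.25 with exercise. Of 20 citric acid cycle genes 10 were measured, and 4 rose in each 6-week comparison, where 6.64% (high salt) and 4.47% (exercise) of all tested probe sets rose. These rises are against the controls with GAPDH ratios of 1.58 to 3.99, and the lists were not refitted with that ratio. They were led by Cs, citrate synthase, at 1.82 ± 0.42 with high salt and 1.76 ± 0.42 with exercise, and by Pdha1 of pyruvate dehydrogenase at 1.26 ± 0.28 and 1.16 ± 0.28. At 15 weeks 0 genes of both lists were called in high salt by limma, with 4 carriers and 1 cycle gene at an unadjusted p under 0.05. Of 28 assembly and mitochondrial expression genes 5 were measured. Among them Phb2, a prohibitin scaffold of the inner membrane, fell by 0.80 ± 0.16 at 15 weeks against control and by 0.64 ± 0.16 against 6-week high salt. Hspa9, a mitochondrial chaperone, rose by 1.43 ± 0.36 with exercise. Of 20 regulators, such as the activators of mitochondrial genes, 9 were measured and 0 were called at 15 weeks by limma, with 1 at an unadjusted p under 0.05 and 8 of 9 below 0.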

How the data were processed

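Values are the authors' deposited intensities, 1 per probe set and array, on a linear scale; the summary method is not given in the sources used here. Their means after trimming 2% lay between 500.767 and 501.021, so they were used as deposited. Members and gene lists were chosen with earlier results of these data known. Leaving out 59 control probe sets and the dimmest 25% by mean intensity left 6555 tested. A mean per group was fitted to log2(intensity + 40) of 20 arrays with limma 3.58.1 (R 4.3.3, intensity trend, 12 residual degrees of freedom); the 3-week comparison used 22 arrays. This scale understates changes of dim probe sets. Adjusted p-values are over all tested probe sets. A gene is its probe sets, which were not averaged. The number of arrays limits precision. The fit was tested on simulated data. Members were named by rule (all called, the 2 smallest p-values and the brightest per complex, and a set of main subunits), with some of these given in counts only. Alternatives covered pseudocount, filter, quantile normalization, RNA ratios, references, shared arrays, replicate block and single arrays.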

Additional observations from a re-analysis of the deposited data

Results flagged for a closer look

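The effect of high salt against control differed between 15 and 6 weeks in 3 of 98 probe sets, all of complex I, where 1.6% of all tested were called (limma interaction). The difference, 15 weeks minus 6 weeks on the log2 scale, was -2.75 for Ndufs8 rc_AA851379_at, -1.93 for Ndufs8 AA685112_at and -1.32 for Ndufb5 AA684537_at. The GAPDH ratios of the 6-week controls were the highest of the series, 1.58 to 3.99, and none passed once the GAPDH ratio entered the fit. With the beta-actin ratio none passed either, at -1.21 ± 0.93, -1.11 ± 0.59 and -0.94 ± 0.49. These 2 ratios were the only measures of RNA integrity entered.

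Among the 4 non-salt arrays of 3 weeks, control array 1 lay far from the others for Uqcrfs1 M24542cds_g_at, at 16642.7 against 14982.8, 15011.0 and 15212.2. Of 39 probe sets examined this way 1 was flagged, where chance gives about 1 in 20.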

How the results depend on the processing

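Counts are of 98 members, and the shares of all tested probe sets called under these settings are not given. High salt against control at 6 weeks gave 0 calls with the GAPDH ratio, 0 with the beta-actin ratio, 0 against controls of 3 and 15 weeks and 2 with only the compared groups. Exercise gave 0, 0, 0 and 2 under the same settings, 13 with all 24 columns and 12 after quantile normalization. At 15 weeks there were 8 calls with the GAPDH ratio, 6 with beta-actin, 4 with all 24 columns, 4 with the shared arrays as exercise, 1 with no filter, 0 with only the compared groups and 0 (chosen after seeing the data) without the 2 controls with higher GAPDH ratios. The difference between weeks gave 0 calls with the GAPDH ratio, 0 with beta-actin, 0 with only the compared groups, 1 with no filter and 1 after quantile normalization. Member medians moved to -0.31 (GAPDH) and -0.0812 (other controls) for high salt at 6 weeks, -0.39 and -0.0792 for exercise, and -0.0338 (GAPDH) for the difference. With a single array left out, calls ranged from 6 to 26 for high salt and 3 to 20 for exercise at 6 weeks, 0 to 7 at 15 weeks and 0 to 14 for the difference, with medians of -0.0897 to 0.24, -0.12 to 0.25, -0.28 to -0.20 and -0.46 to -0.22. Replicate numbers were not shown to pair the arrays: same-numbered deviations correlated at -0.23 to 0.24. With so few arrays a group, this cannot exclude a pairing. The replicate block gave 16, 7, 0 and 1 calls, with Ndufs7 and Ndufb5 at adjusted p = 0.055 and 0.0562 at 15 weeks (limma). Signs turned with the GAPDH ratio for high salt in Ndufs8 (-0.0452 and -0.0711), Uqcrfs1 (-0.18), Ndufaf3 (-0.11), Cox4i1 (-0.55), Atp5pb (-0.0068) and Ndufb6 (-0.0842), and for exercise in Ndufs8 (-0.30 and -0.31), Uqcrfs1 (-0.56) and Ndufaf3 (-0.11); against the other controls they turned for exercise in Ndufb5 (-0.0517) and Ndufs8 (-0.082). The cause was not tested. High salt against exercise at 6 weeks, against non-salt at 3 weeks and between its own time points had 0 calls under every setting run. The number of arrays limits all of this: the median 95% half-interval was 0.497.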

Other observations

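The 6 probe sets left out for having several symbols were not called in any comparison. At 15 weeks 5 of them were below 0 in high salt: those that also match Ndufs5 (-0.45 ± 0.24), Ndufb4 (-0.28 ± 0.20), Atp5mc1 (-0.26 ± 0.23), Cox7a2 (-0.22 ± 0.28) and Cox5a (-0.15 ± 0.22), while that of Atp5mc2 was at 0.05 ± 0.22. The probe set of Ndufs5 and a pseudogene read 4284.2 ± 635.7 (SD, n = 3) in 15-week controls and 3129.5 ± 499.6 in high salt. Which of the genes each probe set reads cannot be told apart.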
